A study of Homo sapiens with 18 samples.

Results

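The genes described here are 10 components of the Gq signalling pathway that drives uveal melanoma, a cancer of the pigment cells of the eye. They were taken by symbol, for their known roles in the pathway, as the rows CYSLTR2, GNAQ, GNA11, PLCB4, PLCB3, RASGRP3, PRKCD, PRKCE, ARF6 and TRIO of a table of 26475 human gene symbols, and all 10 were found. RNA-seq had been performed in Mel92.1 and MP41, 2 cell lines of this cancer, kept for 48 h with 1 μM UNC0642, 1 μM A366 or the vehicle DMSO, which gave 6 groups of 3 libraries and 18 libraries in all. UNC0642 and A366 are small-molecule inhibitors of EHMT2 (also called G9a), a histone methyltransferase that represses transcription. The study states that both can inhibit EHMT1 as well. The comparison asks which transcripts change with each inhibitor. The submitters describe the replicates as biological. Each group is a cell line in culture, with no other cells of a tumour.

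In this pathway a receptor at the cell surface activates the G protein alpha subunits encoded by GNAQ and GNA11, which turn on phospholipase C beta. That enzyme makes the second messengers IP3, which releases calcium, and diacylglycerol, which recruits protein kinase C and the RAS activator RasGRP3. A second arm runs from G alpha q through the guanine nucleotide exchange factor Trio to small GTPases, and the GTPase ARF6 carries signalling components between membranes. In uveal melanoma the pathway is held on by activating mutations, most often in GNAQ or GNA11 and more rarely in CYSLTR2 or PLCB4. Mel92.1 is known to carry an activating mutation in GNAQ, and MP41 an activating mutation in GNA11. The counts do not tell mutant from normal transcripts.

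Of the 18 libraries, 4 were labelled with a cell line that their transcripts did not match. The gene listing published with the study places the libraries labelled A366 replicates 2 and 3 of each line in the other line, and this placement was used here. From the DMSO libraries alone, 20 genes at 20 CPM (counts scaled to 1000000 per library) or more in Mel92.1 did not exceed 0.05 CPM in MP41, and 21 genes showed the opposite pattern. In the 4 libraries, genes specific to the labelled line were at no more than 0.0348% of their level with DMSO, and those of the other line lay between 95.2% and 121%. Among the remaining 14, genes of the opposite line did not exceed 0.432%. In the DMSO libraries among these, the low values were set by the choice of genes. A366 results are therefore given with the published placement, and again as labelled and with the 4 libraries left out.

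Total counts ran from 23601156 to 62941462 per library. The shallowest, Mel92.1 UNC0642 replicate 1, also had the highest share of counts on 4 ribosomal RNA genes, 32.8% in a range from 3.31%. Of the 8 pigment cell markers, MLANA, PMEL, TYR, TYRP1, MITF and SOX10 were at 249 CPM or more in every library, while S100B stayed under 1 CPM in Mel92.1 and DCT at 1.16 to 10.6 CPM. Of 14 markers of fibroblasts, leukocytes, endothelium and epithelium, only CD68 (25.9 to 182 CPM) and COL1A1 (7.25 to 22.2 CPM) passed 3 CPM in any library.

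The sequence before the start site is printed for CYSLTR2, which had few or no counts in Mel92.1, and for GNA11 and PLCB3, which both lines expressed, to show how their content of CG dinucleotides differs. The set of RefSeq (GRCh38.p14) start sites used here covered 8 of the 10 genes. The 250 bases before the RefSeq start are shown for CYSLTR2 (chr13:48653679-48653928), GNA11 (chr19:3094112-3094361) and PLCB3 (chr11:64251280-64251529), all on the plus strand. Each CG dinucleotide, the site of DNA methylation, is in capitals. The letters CG read the same on both strands, and 93.9% of 35116 such windows held at least 1. The gene bounds given further below come from another gene listing, GENCODE. There CYSLTR2 starts at 48653711 and PLCB3 at 64251523, both inside their windows, and GNA11 at 3094410, after its window. Most of the CYSLTR2 window and the last bases of the PLCB3 window therefore lie within the gene as GENCODE gives it.
CYSLTR2: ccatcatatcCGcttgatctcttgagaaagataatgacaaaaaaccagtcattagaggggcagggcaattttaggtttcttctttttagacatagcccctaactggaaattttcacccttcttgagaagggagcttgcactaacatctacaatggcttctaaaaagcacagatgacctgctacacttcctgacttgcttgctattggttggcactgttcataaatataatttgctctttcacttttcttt
GNA11: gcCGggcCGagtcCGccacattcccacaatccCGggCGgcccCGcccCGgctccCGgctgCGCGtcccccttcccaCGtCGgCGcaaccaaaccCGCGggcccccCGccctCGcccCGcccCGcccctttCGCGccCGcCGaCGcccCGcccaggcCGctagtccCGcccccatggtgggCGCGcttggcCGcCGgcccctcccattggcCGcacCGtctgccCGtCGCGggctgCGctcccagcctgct
PLCB3: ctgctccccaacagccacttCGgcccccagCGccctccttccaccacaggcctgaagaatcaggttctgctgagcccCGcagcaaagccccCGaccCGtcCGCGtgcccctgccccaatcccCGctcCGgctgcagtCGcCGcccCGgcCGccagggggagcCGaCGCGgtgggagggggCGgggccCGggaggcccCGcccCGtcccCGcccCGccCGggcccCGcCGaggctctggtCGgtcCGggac
The CYSLTR2 window held 1 CG, below the lower quartile of 3 over all windows, and 39.2% of its bases were G or C. The GNA11 window held 37 and the PLCB3 window 27, above the upper quartile of 23. A low content was not particular to CYSLTR2, since the windows at the 4 start sites listed for RASGRP3, among the highest of the 10 genes in both lines, held 1, 2, 8 and 2. No methylation was measured in these samples.

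Per length of the longest transcript, the order of the 10 genes differed between the lines. In Mel92.1 with DMSO the levels were highest for RASGRP3 (42.0 ± 4.84 CPM per kb, SD, n = 3), followed by ARF6 (35.7 ± 0.676), GNA11 (25.4 ± 1.97), PRKCD (14.4 ± 0.694), PLCB3 (14.2 ± 0.298), GNAQ (9.2 ± 0.803), PRKCE (4.61 ± 0.921), TRIO (3.06 ± 1.14), PLCB4 (0.969 ± 0.166) and CYSLTR2. The neighbours PRKCD and PLCB3, and PRKCE and TRIO, overlapped between libraries in that order. In MP41 with DMSO the order was ARF6 (48.0 ± 0.118 CPM per kb), RASGRP3 (35.1 ± 0.258), GNA11 (12.8 ± 0.628), PLCB4 (9.91 ± 0.409), PRKCD (9.18 ± 0.651), GNAQ (8.63 ± 0.599), TRIO (6.83 ± 0.344), PRKCE (4.85 ± 0.514), PLCB3 (3.71 ± 0.228) and CYSLTR2 (0.267 ± 0.0184). There, PLCB4 overlapped with PRKCD, and PRKCD with GNAQ. Between untreated lines 8 of the 10 genes passed an adjusted p of 0.05, 4 in each direction, in a test that called 69.4% of all genes (34.5% higher and 34.8% lower in Mel92.1), so a call as such was common.

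**Figure D1:**
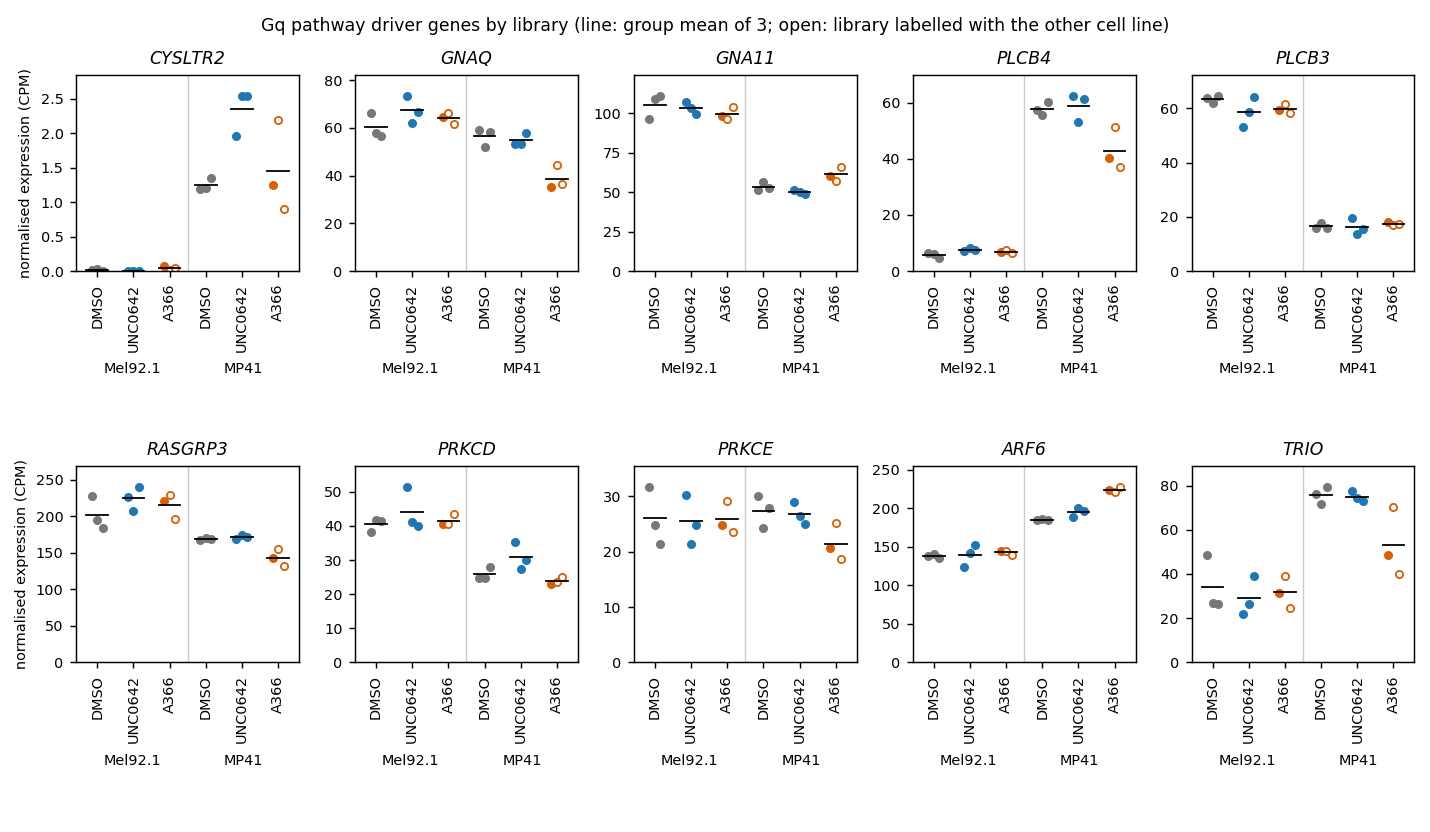
Normalised expression in CPM (vertical axes, from 0) of each gene in every library of Mel92.1 and MP41 with DMSO, UNC0642 or A366; bars are group means of 3, and open circles are the 4 libraries labelled with the other line. CYSLTR2 and PLCB4 sit far higher in MP41 and PLCB3 far higher in Mel92.1, and the A366 group of MP41 lies below its DMSO group for GNAQ and PLCB4 (44.6 CPM at most against at least 51.9 for GNAQ).

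CYSLTR2 encodes the cysteinyl leukotriene receptor that couples to Gq (chromosome 13, 48653711 to 48711226, GRCh38). It was close to absent in Mel92.1 and low in MP41. The 9 Mel92.1 libraries held 8 counts in all, with 4 libraries at 0 and at most 3 counts in any, against 55, 52 and 62 counts in the MP41 DMSO libraries. A count of 0 in a Mel92.1 library allows a level of up to 0.0562 to 0.182 CPM (3 counts), depending on its depth. With DMSO, 169 counts in MP41 against 2 in Mel92.1 gave a ratio of 78.2 (exact 95% interval 21.3 to 651, counting error only, adjusted p = 4.61e-07 in the fit across genes).

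In MP41, CYSLTR2 stood at 1.19, 1.21 and 1.35 CPM with DMSO and at 1.96, 2.54 and 2.54 CPM with UNC0642, so the groups did not overlap. The difference, 0.90 on the log2 scale (SE 0.30, interval 0.24 to 1.57), did not pass after adjustment over all genes (adjusted p = 0.375, edgeR's quasi-likelihood test). The A366 libraries held 1.25, 2.19 and 0.905 CPM and overlapped with both other groups. In Mel92.1 the gene was below the filter on low counts and was not tested. A fall or a small rise there was not detectable at this depth. The Mel92.1 libraries held 0 counts with UNC0642 and 1 to 3 counts with A366. These were at most 0.073 CPM, below every MP41 library.

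Without correction for GC content, the alpha subunits differed between the lines in their balance. GNA11 (chromosome 19, 3094410 to 3124004) had a higher level in Mel92.1, with 96.0, 109 and 111 CPM with DMSO against 51.1, 56.2 and 52.6 CPM in MP41. The difference was 0.98 on the log2 scale (SE 0.072, adjusted p = 1.5e-09). GNAQ (chromosome 9, 77716087 to 78031458) stood at 66.2, 57.9 and 56.4 CPM in Mel92.1 and at 59.0, 51.9 and 58.4 CPM in MP41. These values overlapped, and the difference of 0.093 (interval -0.11 to 0.29) did not pass (adjusted p = 0.393). When GC content and transcript length were fitted as an offset it was 0.63 and passed (adjusted p = 0.000149), and scaled by library size alone it was -0.11, so the comparison of GNAQ between the lines depends on that choice. The GNA11 difference passed under every alternative, in a size from 0.47 to 1.07. Across genes, the difference between the lines had a Spearman correlation of 0.269 with GC content and -0.208 with genomic span. GC content was 38.6% for GNAQ and 62.8% for GNA11. Computed without the offset, GNAQ made up 40.2% ± 2.83 (SD, n = 3) of the pair per length in MP41 with DMSO against 26.7% ± 3.28 in Mel92.1.

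With A366 in MP41, GNAQ fell. The libraries held 35.0, 44.6 and 36.3 CPM, all below the DMSO and UNC0642 libraries (51.9 to 59.0 and 53.0 to 57.8 CPM). The change against DMSO was -0.57 on the log2 scale (SE 0.097, adjusted p = 0.000979), or 0.673-fold. GNA11 stood at 60.4, 57.1 and 66.2 CPM, above every DMSO library, but its difference of 0.18 (SE 0.072) did not pass (adjusted p = 0.0638). Without A366 replicate 2 the GNA11 difference was 0.22 and passed (adjusted p = 0.0141), without A366 replicate 3 it was 0.11 (adjusted p = 0.259), and once GC content and length were fitted as an offset it was -0.0096. In these bulk samples, a lower level in each cell and a smaller share of expressing cells cannot be told apart. With the GC and length offset the fall of GNAQ was smaller, with values given further below. Computed without the offset, the GNAQ share of the pair was 28.6% ± 3.93 in these libraries. In Mel92.1 it was 29.1% ± 1.54 with A366 and 29.3% ± 1.42 with UNC0642, and neither subunit passed there.

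**Figure D2:**
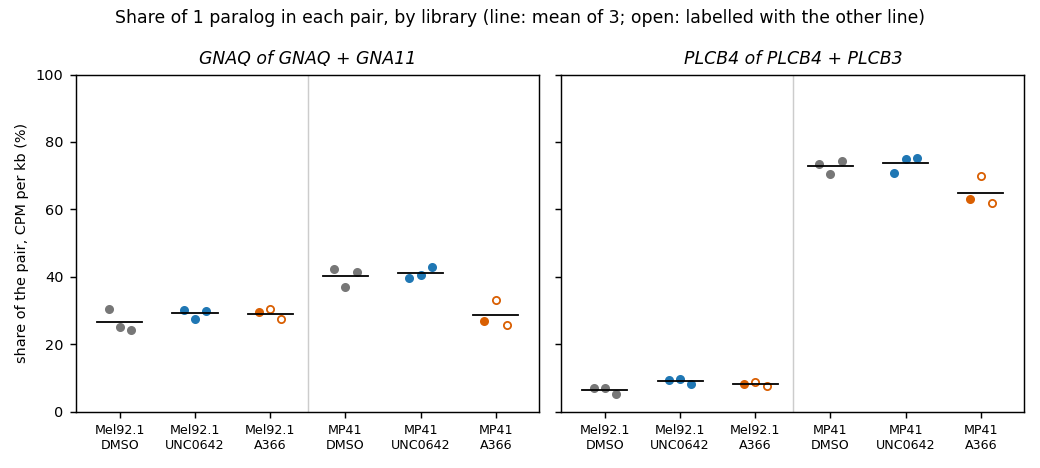
Share of GNAQ in the sum of GNAQ and GNA11, and of PLCB4 in the sum of PLCB4 and PLCB3, in % of CPM per kb (vertical axis), for each library of the 6 groups; bars are means of 3 and open circles are libraries labelled with the other line. PLCB4 makes up 72.8% of its pair in MP41 and 6.37% in Mel92.1 with DMSO, and the GNAQ share in MP41 is 28.6% with A366 and 40.2% with DMSO. Shares are computed without an offset for GC content and length.

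The phospholipases contrasted between the lines, with a different isoform prevailing in each. PLCB4 (chromosome 20, 9068763 to 9481242), itself mutated in some uveal melanomas, stood at 57.3, 55.7 and 60.4 CPM in MP41 with DMSO and at 6.41, 5.99 and 4.56 CPM in Mel92.1. The difference was -3.35 on the log2 scale (Mel92.1 minus MP41, SE 0.14, adjusted p = 9.63e-13). PLCB3 (chromosome 11, 64251523 to 64269150) ran the other way, with 63.9, 62.1 and 64.8 CPM in Mel92.1 and 15.9, 17.7 and 16.1 CPM in MP41, a difference of 1.94 (SE 0.11, adjusted p = 4.43e-11). No library of either line reached the range of the other for these genes. PLCB4 was 72.8% ± 1.89 (SD, n = 3) of the pair per length in MP41 and 6.37% ± 1.1 in Mel92.1.

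Among the 9 genes tested in Mel92.1, PLCB4 had the largest difference of either inhibitor from DMSO. Its libraries held 7.23, 8.29 and 7.56 CPM with UNC0642, all above the DMSO libraries, and 6.89, 7.67 and 6.33 CPM with A366. The difference with UNC0642 was 0.44 (SE 0.17) and did not pass after adjustment (adjusted p = 0.438). It was 0.48 without replicate 1, the shallowest library. In MP41 PLCB4 fell with A366, with 40.3, 51.5 and 37.1 CPM (-0.45, SE 0.11, adjusted p = 0.00676), and stayed at 53.3 to 62.6 CPM with UNC0642. PLCB3 lay between 13.6 and 19.8 CPM in every MP41 library and passed for neither inhibitor in either line.

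RASGRP3 and the protein kinases C respond to diacylglycerol. RASGRP3 (chromosome 2, 33436324 to 33564750), which activates RAS, was among the highest of the 10 in both lines. It stood at 228, 194 and 184 CPM in Mel92.1 and at 168, 170 and 168 CPM in MP41 with DMSO, a difference of 0.26 (SE 0.083, adjusted p = 0.01). Scaled by library size alone, it was 0.063 and did not pass (adjusted p = 0.651). With A366 in MP41 it fell to 142, 154 and 132 CPM (-0.26, SE 0.067, adjusted p = 0.00742), below all DMSO libraries.

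The kinase genes PRKCD and PRKCE encode the delta and epsilon isoforms. PRKCD (chromosome 3, 53156009 to 53192717) was higher in Mel92.1, with 38.3, 41.7 and 41.6 CPM against 24.6, 24.8 and 27.9 CPM in MP41 with DMSO (0.65, SE 0.10, adjusted p = 2.52e-05). In MP41 it stood at 35.3, 27.3 and 30.1 CPM with UNC0642 (0.26, SE 0.097, adjusted p = 0.454) and at 23.0, 23.6 and 24.99 CPM with A366. Without UNC0642 replicate 1 that difference was 0.15. The UNC0642 libraries overlapped with DMSO, and the A366 libraries lay below all UNC0642 libraries. PRKCE (chromosome 2, 45651345 to 46187990) stood at 31.7, 24.9 and 21.5 CPM in Mel92.1 and 30.02, 24.3 and 27.9 CPM in MP41, and the difference of -0.074 (interval -0.40 to 0.25) did not pass. It fell with A366 in MP41, with 20.6, 25.2 and 18.6 CPM (-0.38, SE 0.12, adjusted p = 0.0211), although 1 library lay within the DMSO range. That call was lost without 4 of the single libraries (adjusted p = 0.0961 without DMSO replicate 1, 0.0646 without DMSO replicate 3, 0.0831 without A366 replicate 1 and 0.0695 without A366 replicate 3), and in a fit of all 18 libraries (-0.35, adjusted p = 0.0878).

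TRIO and ARF6 belong to the arm that acts beside phospholipase C. TRIO (chromosome 5, 14143702 to 14532128) was higher in MP41, with 76.1, 71.8 and 79.4 CPM against 48.6, 26.7 and 26.5 CPM in Mel92.1 with DMSO (-1.16, Mel92.1 minus MP41, SE 0.25, adjusted p = 0.000461). Mel92.1 DMSO replicate 1 stood apart in TRIO, although the groups did not overlap, and the difference was -1.49 without it. ARF6 (chromosome 14, 49893092 to 49897054) was higher in MP41 too, with 185, 186 and 185 CPM against 138, 141 and 135 CPM (-0.43, SE 0.061, adjusted p = 7.83e-06).

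With A366 in MP41 these genes moved in opposite directions. TRIO fell to 48.5, 70.3 and 40.0 CPM (-0.54, SE 0.15, adjusted p = 0.0136), with A366 replicate 2 close to the DMSO libraries. Without A366 replicate 1 the change of TRIO was -0.47 and did not pass (adjusted p = 0.0619), and it did not pass in a fit of all 18 libraries either (-0.52, adjusted p = 0.11). ARF6 rose to 224, 222 and 228 CPM (0.25, SE 0.054, adjusted p = 0.00298), above all DMSO and UNC0642 libraries (185 to 200 CPM). In Mel92.1 neither gene passed, and ARF6 lay between 124 and 153 CPM and TRIO between 22.1 and 48.6 CPM over the 9 libraries.

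**Figure D3:**
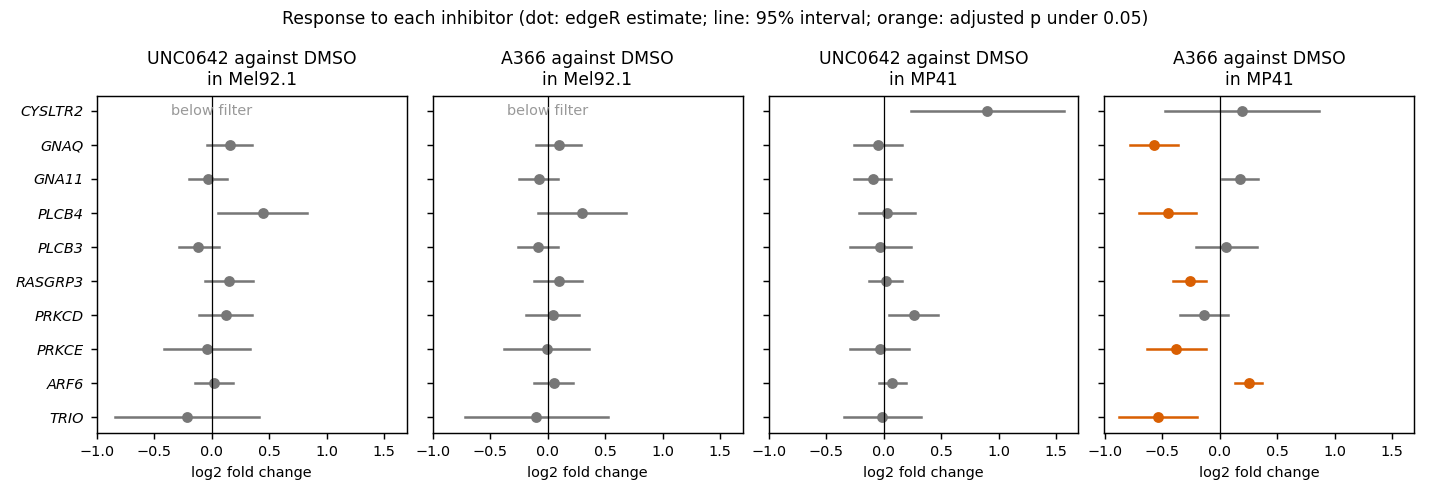
Log2 fold change of each gene (horizontal axes) against DMSO for each inhibitor in each line; dots are edgeR estimates, lines are 95% intervals, and orange marks an adjusted p under 0.05. In the panel of A366 in MP41, 5 genes lie below 0 and ARF6 above it in orange, and no gene is orange in the other panels.

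Counted over the 10 genes, no inhibitor comparison other than those of A366 in MP41 had a member that passed. UNC0642 called 0 of the 9 genes tested in Mel92.1 (1 at an unadjusted p under 0.05) beside 0.688% of all genes, and the log2 changes lay between -0.22 and 0.44. A366 called 0 of 9 in Mel92.1 (0 unadjusted) beside 0.213% of all genes, with changes between -0.10 and 0.30. UNC0642 called 0 of 10 in MP41 (2 unadjusted, CYSLTR2 and PRKCD) beside 0.241% of all genes, and without CYSLTR2 the changes lay between -0.098 and 0.26. DESeq2 also called 0 in each of these comparisons. In Mel92.1 the widest intervals of the 9 genes were those of TRIO, from -0.84 to 0.41 with UNC0642 and -0.72 to 0.52 with A366. The highest upper bounds there were those of PLCB4, 0.83 with UNC0642 and 0.68 with A366. Changes within a gene's interval were not excluded. In MP41 with UNC0642 the widest interval was that of CYSLTR2 (0.24 to 1.57). A366 in MP41 called 6 of 10, with GNAQ, PLCB4, RASGRP3, PRKCE and TRIO lower and ARF6 higher, beside 46.0% of all genes (22.5% higher and 23.5% lower). The median over the 10 genes was -0.20 and over all tested genes 0.02.

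The inhibitors were compared directly at the same dose and time, in 19 tests of a gene in a line, with p-values adjusted over all genes tested. In Mel92.1 A366 and UNC0642 differed by -0.14 to 0.12 on the log2 scale with intervals from -0.52 to 0.74, and 0 of 9 genes passed (0 unadjusted, 0 by DESeq2, 0.165% of all genes). In MP41 8 of 10 passed, beside 43.1% of all genes (21.1% higher and 22.0% lower with A366). GNA11 (0.27, SE 0.072, adjusted p = 0.00952) and ARF6 (0.18, SE 0.054, adjusted p = 0.0177) were higher with A366. GNAQ (-0.52), PLCB4 (-0.48), RASGRP3 (-0.28), PRKCD (-0.39), PRKCE (-0.34) and TRIO (-0.52) were lower with A366, with adjusted p between 0.00156 and 0.0338. PLCB3 did not pass (0.084, interval -0.18 to 0.35), nor did CYSLTR2 (-0.71, interval -1.36 to -0.06, adjusted p = 0.0735). PRKCE, ARF6 and TRIO lost their calls without UNC0642 replicate 1 or without A366 replicate 1, which left 5 genes, and PRKCE and ARF6 also without A366 replicate 3 (adjusted p = 0.107 and 0.0539). Without A366 replicate 2, CYSLTR2 passed (-1.14, adjusted p = 0.00439). With the libraries as labelled 3 genes passed (GNA11, PLCB3 and TRIO), and GNAQ, RASGRP3, PRKCD and ARF6 had the opposite sign. With the GC and length offset 3 passed (PRKCD, ARF6 and TRIO). This comparison shares its A366 libraries with that against DMSO.

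Differences between the lines in a response were tested by an interaction term, taken as the Mel92.1 change less the MP41 change. For A366, GNAQ (0.64, SE 0.13, adjusted p = 0.00837) and PLCB4 (0.73, SE 0.19, adjusted p = 0.0199) passed, 2 of 10 beside 13.8% of all genes. The other genes that fell in MP41 did not pass, with differences of 0.33 for RASGRP3 (adjusted p = 0.0673), 0.34 for PRKCE and 0.42 for TRIO, so a difference between the lines was not shown for them. The call of PLCB4 was lost without any of MP41 DMSO replicate 3, MP41 A366 replicates 1 and 3, Mel92.1 DMSO replicate 3 and Mel92.1 A366 replicates 1 and 2 (0.60 to 0.73, adjusted p between 0.0501 and 0.0685), while that of GNAQ held without each single library. GNA11, RASGRP3 or ARF6 passed when some libraries were left out, among them RASGRP3 without Mel92.1 DMSO replicate 1 (0.43, adjusted p = 0.00763), GNA11 without that library (-0.34, adjusted p = 0.0192) and ARF6 without Mel92.1 UNC0642 replicate 1 (-0.22, adjusted p = 0.0267). For UNC0642 0 of 10 passed (2 unadjusted, CYSLTR2 and PLCB4, and 0 by DESeq2) beside 0.601% of all genes.

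The A366 results in MP41 rest on where the 4 libraries are placed. With those 4 left out, which leaves 1 A366 library whose spread is assumed to be that of the other groups, the same 6 genes passed: GNAQ -0.73, PLCB4 -0.56, RASGRP3 -0.29, PRKCE -0.45, TRIO -0.69 and ARF6 0.23. With the libraries as labelled, 3 genes passed, GNA11 (0.72), PLCB3 (1.5) and TRIO (-1.01). All 3 were among the 8 of 10 genes that passed between the lines with DMSO. As labelled, GNAQ was at -0.037, and RASGRP3 (0.18) and ARF6 (-0.13) had the opposite sign. In Mel92.1 no gene passed with the libraries as labelled, where the spread within the A366 group was wide (PLCB4 2.51, adjusted p = 0.162).

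**Figure D4:**
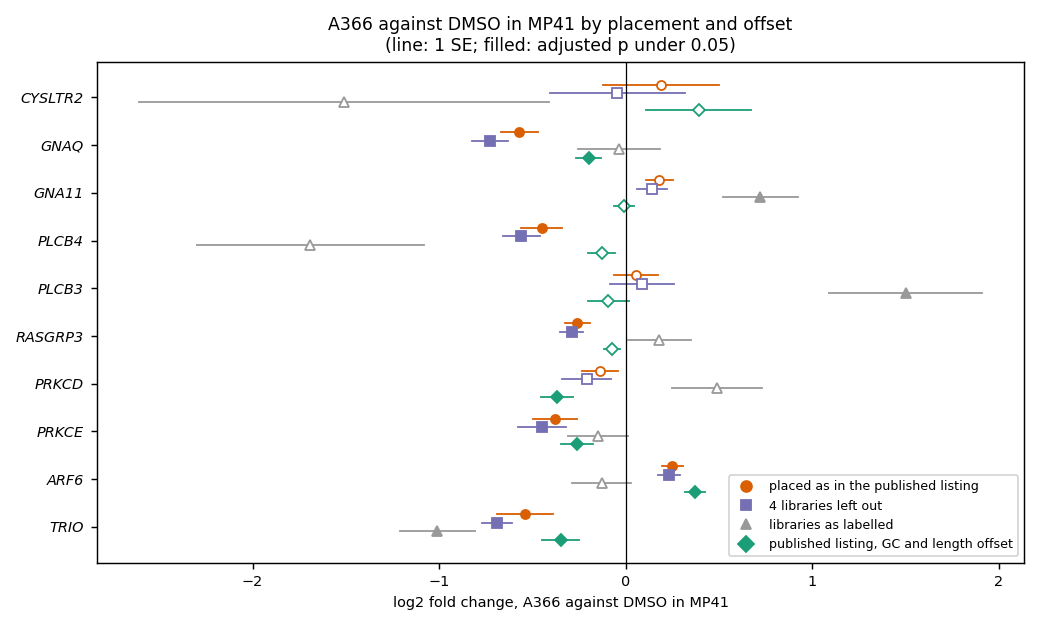
Log2 fold change with A366 against DMSO in MP41 (horizontal axis) for each gene with the published placement of libraries, with the 4 libraries left out, with libraries as labelled, and with the published placement and GC content and length fitted as an offset; lines are 1 SE and filled symbols have an adjusted p under 0.05. GNAQ goes from -0.57 to -0.037 as labelled and to -0.20 with the offset, and ARF6 changes sign only as labelled.

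Changes with A366 in MP41 went with features of the genes themselves. Across 14455 tested genes with a GENCODE 29 (GRCh38) match, the log2 change had a Spearman correlation of -0.39 with the genomic span of the gene, -0.473 with transcript length and 0.46 with GC content. These are descriptions across genes of the same libraries, which are not independent replicates. In MP41 with UNC0642 the corresponding values were -0.0772 for span, -0.0955 for length and 0.116 for GC content, and in Mel92.1 with A366 they were 0.0936, 0.0169 and -0.231, each of the opposite sign to A366 in MP41. The median change was 0.31 for genes spanning up to 10 kb, 0.11 up to 30 kb, -0.11 up to 100 kb, -0.24 up to 300 kb and -0.19 above that. The A366 libraries of MP41 also differed in composition and depth. They held 5.93%, 8.06% and 11% of counts on ribosomal RNA genes, against 3.31% to 5.1% with DMSO and 3.55% to 5.14% with UNC0642. Their total counts were 46220015 to 54800817, against 39230075 to 41585678 with DMSO and 37531522 to 44082889 with UNC0642. The part of these differences in the result was not tested.

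The 5 genes that fell were the 5 with the longest spans of the 10, PRKCE (537 kb), PLCB4 (412 kb), TRIO (388 kb), GNAQ (315 kb) and RASGRP3 (128 kb), and ARF6, which rose, was the shortest (3.96 kb). The rise of ARF6 (0.25) was smaller than the median of 0.31 for genes up to 10 kb, of which 43.4% were called higher. Once GC content and length were fitted per library, GNAQ (-0.20, adjusted p = 0.0348), PRKCE (-0.26, adjusted p = 0.0348), TRIO (-0.35, adjusted p = 0.0146) and ARF6 (0.37, adjusted p = 0.000269) kept their calls in smaller or larger size. PLCB4 (-0.13, adjusted p = 0.176) and RASGRP3 (-0.073, adjusted p = 0.202) lost theirs, and PRKCD passed (-0.37, adjusted p = 0.00547). With the same offset no gene passed the difference between the lines for A366, where GNAQ was at 0.26 and PLCB4 at 0.40. Such an offset also removes any response that itself goes with GC content or length, and the part of these features in the result was not tested.

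**Figure D5:**
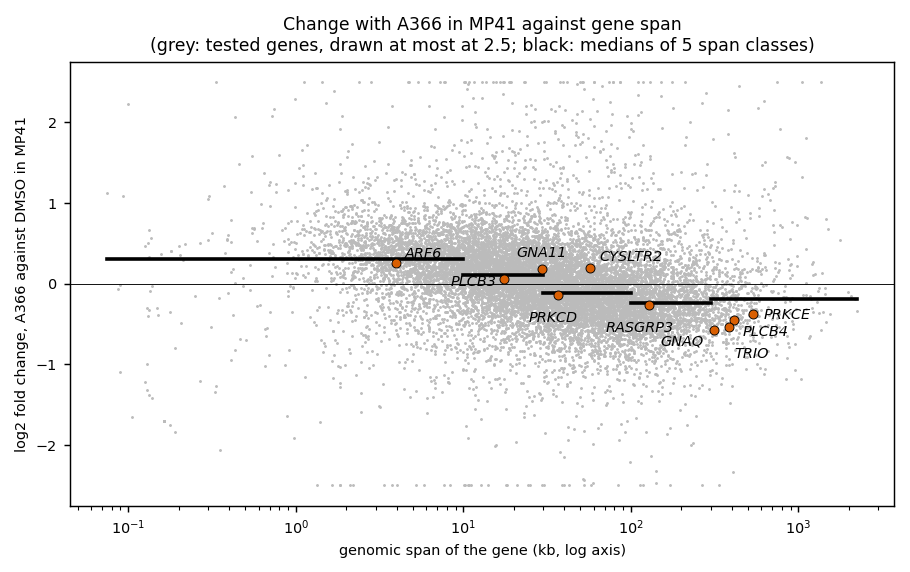
Log2 fold change with A366 against DMSO in MP41 (vertical axis) against genomic span in kb (horizontal, log axis) for all matched genes (grey, drawn at the edge beyond 2.5), with medians of 5 span classes (black) and the 10 genes (orange). The medians go from 0.31 for the shortest to -0.24 and -0.19 for the longest classes. All of the 10 genes but GNA11 and CYSLTR2 lie below the median of their class, ARF6 (0.25) included.

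Other genes of the pathway were counted over a list of 140 in the table, sorted into 11 roles. Between the lines 92 of 115 tested passed with DMSO, 53 higher in Mel92.1 and 39 higher in MP41, or 80% beside 69.4% of all genes. The largest differences were in GNG11, a gamma subunit, LPAR3, a lysophosphatidic acid receptor, PLCB1, a further phospholipase C beta, DGKI, a diacylglycerol kinase, and ITPR3, an IP3 receptor, all higher in Mel92.1. PLCB1 held 6.18 to 12.0 CPM in Mel92.1 and 0 to 0.0649 CPM in MP41 with DMSO, and its ratio was 403 (exact 95% counting interval 138 to 1958), with all 3 MP41 counts in DMSO replicate 1 and the other 2 MP41 DMSO libraries at 0. The ratio was 609 (331 to 1270) for GNG11, 971 (174 to 38397, with 1 count in MP41) for LPAR3, 95.1 (59.2 to 164) for DGKI and 80.5 (71.0 to 91.8) for ITPR3. All 12 beta and gamma subunits tested passed, 10 of them higher in Mel92.1, beside 69.4% passing and 34.5% higher over all genes, with a median of 0.54 beside -0.022. The further protein kinases C and D passed in 9 of 9, with 5 higher and 4 lower and a median of 0.64. Both roles were picked out after their values were seen.

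Among the listed genes, HTR2B passed with UNC0642 in both lines. This serotonin receptor coupled to Gq fell with UNC0642 in Mel92.1, from 28.8 to 29.7 CPM down to 6.5 to 14.7 CPM (-1.28, SE 0.23, adjusted p = 0.0426), and in MP41, from 20.6 to 22.5 CPM down to 12.6 to 14.7 CPM (-0.66, SE 0.082, adjusted p = 0.00672). With A366 it lay at 29.2 to 31.0 CPM in Mel92.1 and 24.3 to 24.6 CPM in MP41 and did not pass. The direct comparison of A366 and UNC0642 passed in MP41 (0.80, SE 0.082, adjusted p = 7.4e-05) and not in Mel92.1 (1.31, SE 0.23, adjusted p = 0.0928). The call with UNC0642 in Mel92.1 was lost when any 1 of the 9 libraries of the line other than UNC0642 replicate 1 was left out (-1.28 to -1.45, adjusted p between 0.0679 and 0.187), and that in MP41 without DMSO replicate 1 (adjusted p = 0.0574) or DMSO replicate 3 (adjusted p = 0.0582). HTR2B was the 1 listed gene of 109 that passed with UNC0642 in each line, or 0.917% beside 0.688% of all genes in Mel92.1 and 0.241% in MP41. With A366 in Mel92.1, 0 of 109 passed by edgeR (2 at an unadjusted p under 0.05), beside 0.213% of all genes. NFATC2, a transcription factor of the calcium arm, was higher with A366 than with UNC0642 in Mel92.1, at 3.16 to 3.97 against 0.691 to 1.22 CPM (2.09, SE 0.30, adjusted p = 0.0365), a call likewise lost without any single library other than UNC0642 replicate 1 (adjusted p between 0.0663 and 0.225).

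A366 in MP41 called 47 of the 109 listed genes, 18 higher and 29 lower, or 43.1% beside 46.0% of all genes. The lowest adjusted p were those of ITPR2, an IP3 receptor (-0.91, SE 0.12, adjusted p = 0.000417), GNA13, a G protein alpha subunit of another class (-0.60, SE 0.089, adjusted p = 0.000594), and NRAS (-0.52, SE 0.078, adjusted p = 0.000612). With the GC and length offset they were smaller, at -0.47, -0.36 and -0.28, and still passed, while with the libraries as labelled NRAS was at -0.17 and did not pass (adjusted p = 0.418). Over the 11 roles the medians ran from -0.36 for the diacylglycerol kinases (4 of 7 fell and 1 rose) to 0.15 for the chaperones and brakes of G alpha q (5 of 10 rose and 1 fell), beside 22.5% higher and 23.5% lower over all genes. Of the further protein kinases C and D 3 of 9 fell and 0 rose, and of the calcium arm 4 of 11 fell and 0 rose. These roles were picked out after their values were seen. RHOB, a GTPase of the TRIO arm, stood at 20.1 to 20.9 CPM with A366 and 11.2 to 12.5 CPM with UNC0642 in MP41 (0.75, SE 0.081, adjusted p = 9.89e-05).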

How the data were processed

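RNA-seq of Mel92.1 and MP41 cells was analysed from 1 table of expected counts per gene, which the authors deposited for 26475 symbols and 18 libraries without normalization for library size. Per the labels' processing notes the tools were RSEM 1.2.15 and Bowtie2 2.1.0 and the build hg38. The study's methods describe another route (mouse build, Cufflinks). The protocol names oligo-dT selection and a kit that keeps strand, while the series text names removal of ribosomal RNA. Whether the counting used strand is not given in the sources used here, so reads of GNA11, RASGRP3 and PRKCE and of their antisense neighbours may not be told apart, and GNAQ has a processed pseudogene, GNAQP1. The members' 180 values were all whole numbers (0 were not). There were 0 table columns left unused.

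Expected counts were rounded. In each line, 9 libraries were fitted with edgeR 4.0.16 in R 4.3.3 (filterByExpr, TMM, glmQLFit, glmQLFTest, Benjamini-Hochberg over all genes, threshold 0.05), and all 18 for the lines and the interactions. CPM values use the TMM factors of the 18 libraries. CYSLTR2 was below the filter in Mel92.1. All 10 members are named. Of the pathway list, up to 3 genes with the lowest adjusted p per inhibitor comparison, any that passed with both inhibitors in a line, and the 5 largest differences between the lines (1 CPM or more in a group) are named. The members and lists were chosen with earlier results of these data known. The tests were run on simulated counts with planted changes larger than any change of the 10 genes against DMSO. That run does not show how changes of the reported size are called.

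Alternatives were DESeq2 1.42.0, RLE factors, library size alone, no filter, the replicate number as a block, an offset for GC content and length, other library placements, 6 or 18 libraries per fit, and leaving out each library. An offset that adds gene span was chosen after seeing the data. Transcript features came from GENCODE 29, where 23899 symbols matched by name and 719 by a RefSeq synonym, and 1857 did not match. Total counts of 23601156 to 62941462 set the precision, and intervals on counts cover counting error only. P-values set a difference against the spread of libraries within groups, estimated over all groups of a fit and moderated across genes.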

Additional observations from a re-analysis of the deposited data

Results flagged for a closer look

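GNAQ and PLCB4 responded to A366 differently in the lines by a test of the difference itself. The Mel92.1 change less the MP41 change was 0.64 for GNAQ (adjusted p = 0.00837) and 0.73 for PLCB4 (adjusted p = 0.0199). In MP41, GNAQ went from 51.9 to 59.0 CPM with DMSO down to 35.0 to 44.6 CPM with A366, and in Mel92.1 it lay at 56.4 to 66.2 and 61.6 to 66.2 CPM. PLCB4 went from 55.7 to 60.4 CPM down to 37.1 to 51.5 CPM in MP41 and lay at 4.56 to 6.41 and 6.33 to 7.67 CPM in Mel92.1. Both differences use 4 libraries that the labels put in the other line, without which 1 A366 library remains in each line. GC content, length and span went with the change in MP41. With the GC and length offset neither passed (0.26 for GNAQ and 0.40 for PLCB4), and PLCB4 also did not pass without any of 6 single libraries (adjusted p between 0.0501 and 0.0685).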

How the results depend on the processing

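Alternatives were compared for the counts and for each of the 10 genes with an unadjusted p under 0.05, the other genes named from the pathway list, and GNAQ between the lines. The counts of members passing held within 1.5 times in every comparison with UNC0642 against DMSO, in both other comparisons within Mel92.1 and between the lines with DMSO, under each alternative run. For A366 against DMSO in MP41 the 6 became 3 with libraries as labelled and 4 to 7 when single libraries were left out. For A366 against UNC0642 in MP41 the 8 became 3 with libraries as labelled and 3 after GC content and length were fitted as an offset, without or with the replicate block, and 5 to 9 when single libraries were left out. For the difference between the lines in the response to A366 the 2 became 7 with libraries as labelled, 1 with the 4 libraries left out, 4 with DESeq2, 1 with library size alone, 0 with either offset and with the GC and length offset plus the replicate block, and 1 to 4 when single libraries were left out. With libraries as labelled the direction turned for RASGRP3 (0.18) and ARF6 (-0.13) in A366 against DMSO, for GNAQ (0.012), RASGRP3 (0.17), PRKCD (0.23) and ARF6 (-0.20) in A366 against UNC0642, and for GNAQ (-0.25), RASGRP3 (-0.42) and ARF6 (0.65) in the difference between the lines, and for RHOB (-0.47) in A366 against UNC0642. GNAQ between the lines turned to -0.11 with library size alone. GNA11 with A366 against DMSO in MP41 turned to -0.0096 with the offset, -0.0086 with the block added and -0.008 with span added. Of the pathway list, the 1 gene passing with UNC0642 in Mel92.1 became 0 with libraries as labelled, the 4 left out, library size alone, the replicate block (with or without the offset) or 6 libraries, 3 with DESeq2 or 18 libraries, and 0 to 3 when single libraries were left out. The 1 in MP41 became 0 with libraries as labelled or 18 libraries, 3 with the 4 left out, DESeq2, either offset, the GC and length offset plus the block, or 6 libraries, and 0 to 3 when single libraries were left out. The 47 with A366 in MP41 became 28 with the GC and length offset plus the block. With libraries as labelled, each A366 group holds libraries whose transcripts match the other line. The offsets remove trends with the features by construction, and otherwise the cause was not tested. The offset with span was chosen after seeing the data.

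Same-numbered libraries did not deviate together (correlations between -0.14 and 0.151 over 18 pairs, 1 of them above 0.1), so the numbers are not taken to pair the libraries. The replicate block left 6, 8, 8 and 2 members passing for A366 against DMSO and against UNC0642 in MP41, between the lines, and for the difference in response to A366, and of 50 values for single genes it ended the calls of HTR2B with UNC0642 (-1.33, adjusted p = 0.122) and NFATC2 (adjusted p = 0.214) in Mel92.1 and no other. With library size alone the median of all genes lay at -0.24 to 0.25 in comparisons between the lines or with UNC0642 in Mel92.1, against -0.025 to 0.014 as reported. Over all genes, the calls ranged across alternatives from 0 to 384 for UNC0642 in Mel92.1 (100 as reported), 0 to 171 for A366 in Mel92.1 (31), 0 to 213 for A366 against UNC0642 in Mel92.1 (24), 0 to 180 for UNC0642 in MP41 (36), and for the differences between the lines 0 to 315 (95, UNC0642) and 140 to 7801 (2179, A366), the replicate block giving 46, 10, 6 and 9 in the 4 comparisons within lines. Depth limits CYSLTR2 in Mel92.1, where 8 counts in 9 libraries could show no fall or small rise.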
